A study of Mus musculus with 16 samples.

Results

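The genes that drive the passage through G1 were followed across all 8 groups of a fibroblast RNA-seq experiment. They are the D-type cyclins Ccnd1, Ccnd2 and Ccnd3, the E-type cyclins Ccne1 and Ccne2, the kinases Cdk2, Cdk4 and Cdk6, and the phosphatase Cdc25a. They were taken by symbol, and all 9 were found among the 21671 genes of the table. The cells were serum-starved mouse embryonic fibroblasts that all expressed MycER, a Myc protein held inactive until 4-hydroxytamoxifen (OHT) binds its fused hormone-binding domain. The MycER groups expressed it alone, and the YAP2S groups also carried an activated form of YAP, the co-activator of TEAD transcription factors, without serines at which LATS kinases restrain it. Each population was left untreated, or given OHT at 400 nM, Y27632 (Y27) at 50 µM, or both. Y27 inhibits the kinase ROCK and so lowers actomyosin tension. This gave 8 groups of 2 libraries, 16 libraries in all, named here MycER, MycER OHT, MycER Y27, MycER OHT Y27 and the same 4 for YAP2S. The labels do not say whether the 2 libraries of a group came from separate cultures, so that p-values measure only the spread between these libraries, which may be technical. The labels also name no clone and no promoter for either transgene.

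G1 is the stretch of the cycle in which a cell decides whether to copy its DNA. D-type cyclins are made in response to growth factors and adhesion and activate Cdk4 and Cdk6, which begin to phosphorylate the retinoblastoma protein. E-type cyclins, transcribed largely by E2F factors once that protein lets them go, then activate Cdk2, and Cdc25a removes the inhibitory phosphates from the cyclin E and Cdk2 complex. Ccnd2, Cdk4 and Cdc25a are known targets of Myc, and Ccnd1 in fibroblasts is known to depend on adhesion and cytoskeletal tension.

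Values are RPKM, reads per kilobase of gene scaled to the depth of the library. Depth differed between libraries, from 1.76 M reads in MycER replicate 1 to 15.71 M reads in MycER OHT replicate 1, a ratio of 8.91. In genes of at least 500 bases the highest number of reads per base was 1.87. Of 9 fibroblast markers 7 reached 1 RPKM in at least 2 libraries, with a summed level of 399.5 to 1344 RPKM, while Pdgfra and Thy1 stayed below 1 in every library. The 4 endothelial markers never reached it, 1 of 4 epithelial markers did, and of 6 macrophage markers Ptprc and Emr1 did not, the 6 summing to 5.45 to 12.7 RPKM. Of 4 neural, 4 muscle and 4 adipocyte markers 2, 1 and 2 did.

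The labels of the libraries with OHT were not borne out by 1 gene that marks the populations. Bex1, chosen as a check with earlier results of these data known, lay at 15.97 and 16.1 RPKM in YAP2S and at 16.2 and 20.0 RPKM in YAP2S Y27, and at 0 to 0.490 RPKM in MycER and MycER Y27. In the libraries labelled MycER OHT it lay at 19.0 and 19.8 RPKM and in those labelled MycER OHT Y27 at 7.64 and 7.49 RPKM. In those labelled YAP2S OHT and YAP2S OHT Y27 it was between 0.123 and 1.01 RPKM. Thus with OHT the libraries labelled MycER were high in Bex1 and those labelled YAP2S low, the reverse of the libraries without OHT, with MycER OHT Y27 between the low and the high level. Yap1 did not separate the populations, with 17.04 to 30.6 RPKM over all libraries. Esr1, whose sequence is part of MycER, lay at 0.726 to 1.99 RPKM. It could not tell the populations apart, since both express MycER. Groups keep their labels here, comparisons among the 8 libraries without OHT are also given from those libraries alone, and no comparison with OHT can be had without the libraries in doubt.

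The windows before the gene starts show which of these genes carry the words that Myc, E2F and TEAD factors are known to bind. Windows of RefSeq on GRCm38.p6, from 250 bases before to 50 bases after a gene start, were held for 6 of the members, with 2 for Ccnd3. Ccnd1, Ccnd2 and Ccne2 were not among them. On both strands CACGTG (the E-box of Myc), TTTGGCGC and TTTCCCGC (E2F) and GGAATG (TEAD) were searched, and no match overlapped another. The 250 bases before the start are printed 5′ to 3′ on the strand of the gene, with matches in capitals, for the kinase with the most E-boxes and for the 3 genes called higher with OHT in the libraries labelled MycER. Cdk4 lies at chr10:127063285-127063534 (plus strand), Cdk6 at chr5:3343643-3343892 (plus), Cdc25a at chr9:109875329-109875578 (plus) and Ccne1 at chr7:38107491-38107740 (minus).
Cdk4: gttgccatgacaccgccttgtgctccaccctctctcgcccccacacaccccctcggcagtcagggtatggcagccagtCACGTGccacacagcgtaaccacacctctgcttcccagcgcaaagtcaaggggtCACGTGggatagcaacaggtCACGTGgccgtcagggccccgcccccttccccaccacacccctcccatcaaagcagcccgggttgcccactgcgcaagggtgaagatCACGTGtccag
Cdk6: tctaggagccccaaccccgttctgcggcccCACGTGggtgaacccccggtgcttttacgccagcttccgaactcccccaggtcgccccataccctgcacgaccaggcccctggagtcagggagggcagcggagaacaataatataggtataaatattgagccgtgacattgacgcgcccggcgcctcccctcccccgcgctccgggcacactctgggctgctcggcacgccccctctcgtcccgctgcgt
Cdc25a: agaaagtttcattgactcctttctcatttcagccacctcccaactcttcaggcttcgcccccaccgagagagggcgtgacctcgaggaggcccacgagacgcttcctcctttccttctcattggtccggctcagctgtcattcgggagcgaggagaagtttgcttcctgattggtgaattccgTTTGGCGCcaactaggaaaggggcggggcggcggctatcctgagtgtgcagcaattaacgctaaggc
Ccne1: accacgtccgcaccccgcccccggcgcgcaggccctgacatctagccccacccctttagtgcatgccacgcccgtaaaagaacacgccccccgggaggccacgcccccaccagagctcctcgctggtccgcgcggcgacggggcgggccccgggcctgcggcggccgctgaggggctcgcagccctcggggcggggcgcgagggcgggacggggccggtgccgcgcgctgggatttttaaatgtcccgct
Cdk4 held 4 E-boxes, starting 172, 118, 98 and 11 bases before the gene start, a number reached by 8 of 32851 windows (0.024%). Cdk6 held 1, starting 220 bases before it, as 7.15% of windows held at least 1. Cdc25a held 1 TTTGGCGC, present in 0.51% of windows, and Cdk2 held 1 TTTCCCGC on the other strand, present in 1.07%. The second window of Ccnd3 held 1 GGAATG, present in 14.66%. The window of Ccne1 held none of the 4 words.

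Per kilobase of gene the members covered a wide range. Cdk4 had the highest RPKM, 96.3 to 304 over the 16 libraries, followed by Ccnd2 with 52.3 to 121 and Ccnd1 with 24.3 to 57.2. Cdk2 lay at 27.8 to 39.6 RPKM, Cdk6 at 16.5 to 42.9, Ccne1 at 5.69 to 28.3 and Cdc25a at 9.50 to 27.3. Ccnd3 and Ccne2 were lowest, at 8.18 to 12.2 and 4.64 to 18.8 RPKM. Ccne1 and Ccne2 varied most, 4.97-fold and 4.06-fold between the lowest and the highest library, and Cdk2 and Ccnd3 least, 1.42-fold and 1.49-fold. All 9 passed the filter on low values, an RPKM of at least 1 in at least 2 libraries, as did 13028 genes in all.

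**Figure D1:**
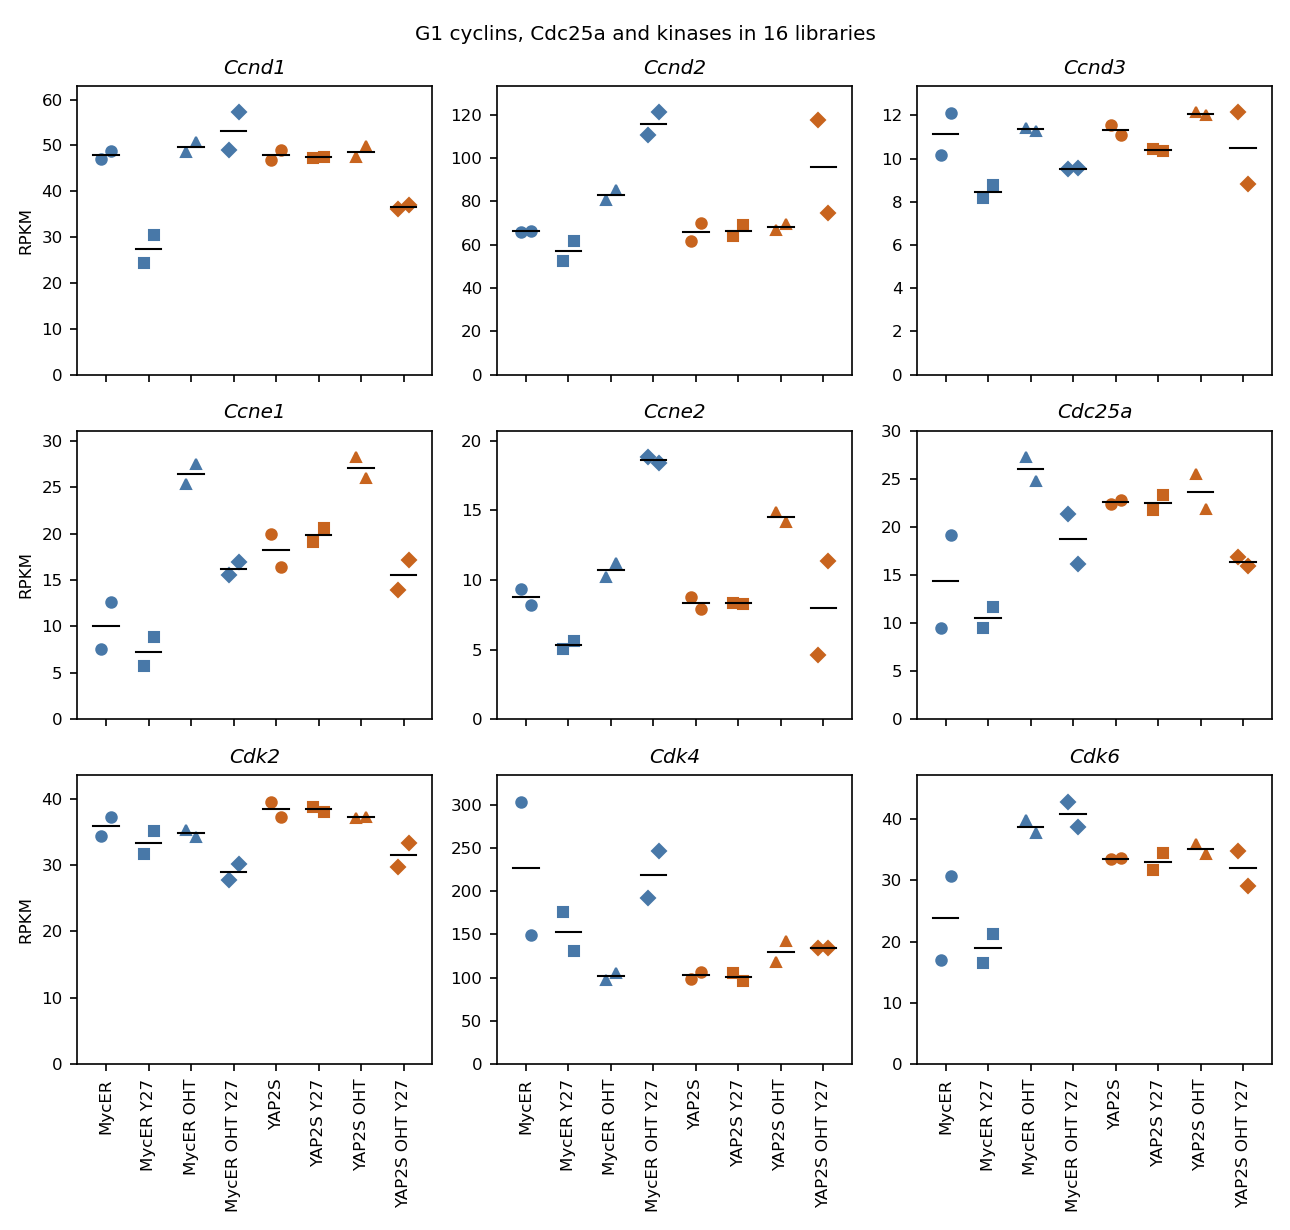
RPKM (y axis, from 0) of each member in the 16 libraries, by group on the x axis, with 1 point per library and a bar at the mean of the 2. Blue marks MycER groups and orange YAP2S groups; Ccnd1 is lowest in MycER Y27, at 24.3 and 30.5 RPKM, and the 4 lowest values of Ccne1, 5.69 to 12.6 RPKM, are those of MycER and MycER Y27.

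Ccnd1, the D-type cyclin best known to follow adhesion, was lower with the ROCK inhibitor in MycER cells and not in YAP2S cells. It stood at 47.1 and 48.7 RPKM in MycER and at 24.3 and 30.5 RPKM in MycER Y27, while in YAP2S it was 46.9 and 49.0 RPKM and in YAP2S Y27 47.3 and 47.5 RPKM. Both MycER Y27 libraries were below every other library of the series. The change with Y27 in MycER was -0.79 ± 0.11 (log2 of RPKM + 1, ± SE, n = 2 against 2; limma, adjusted p = 0.000561), and it was -0.02 ± 0.11 in YAP2S, with a 95% interval of -0.26 to 0.23. The fall passed in each of 4 other scalings, between -0.98 and -0.76, without each library in turn, between -0.95 and -0.64, and with only the libraries without OHT (adjusted p = 0.00712). With the 4 libraries of the comparison alone it did not (limma, adjusted p = 0.104). The difference between the 2 responses was 0.78 ± 0.16 and did not pass (limma, adjusted p = 0.0558, and 0.167 with the libraries without OHT). It passed in each of the 4 other scalings, at 0.75 to 0.95, and without MycER replicate 2 or MycER Y27 replicate 2, while over all libraries left out in turn its adjusted p lay between 0.016 and 0.254. Cultures are bulk samples, in which fewer cells of a type and less RNA per cell cannot be told apart. In Y27 the level in YAP2S was therefore above that in MycER, by 0.78 ± 0.11 (limma, adjusted p = 0.000739, and 0.00872 without the OHT libraries), and without treatment it was 0.00 ± 0.11 apart.

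With OHT the libraries labelled MycER kept their Ccnd1 level in Y27 and those labelled YAP2S did not. Libraries labelled MycER OHT had 48.6 and 50.8 RPKM and those labelled MycER OHT Y27 48.9 and 57.2 RPKM, so that no fall with Y27 was seen (0.09 ± 0.11, limma adjusted p = 0.536). Libraries labelled YAP2S OHT had 47.5 and 49.8 RPKM and those labelled YAP2S OHT Y27 36.2 and 36.9 RPKM, without overlap. There Y27 lowered Ccnd1 by -0.40 ± 0.11 (limma, adjusted p = 0.0373), a call lost without YAP2S OHT replicate 1, YAP2S OHT replicate 2 or YAP2S OHT Y27 replicate 1, with adjusted p of 0.132, 0.226 and 0.134. Ccnd1 was thus lower with Y27 in the 2 pairs of groups in which Bex1 lay at or below 1.01 RPKM, and in neither pair in which it lay at or above 7.49 RPKM. Whether the labels play a part in this was not tested. In the presence of Y27, OHT raised Ccnd1 by 0.94 ± 0.11 in MycER (limma, adjusted p = 3.61e-05), which shares the low MycER Y27 libraries with the comparison above, and lowered it by -0.37 ± 0.11 in YAP2S (adjusted p = 0.0455). The latter was lost without any 1 of its 4 libraries, with adjusted p between 0.0522 and 0.205. Without Y27, OHT changed it by 0.05 ± 0.11 in MycER and 0.02 ± 0.11 in YAP2S. The response of MycER cells to OHT therefore differed with and without Y27 by 0.88 ± 0.16 (limma, adjusted p = 0.000895), which passed in each of the 4 other scalings and without each of its 8 libraries. Between libraries with both compounds, YAP2S was lower than MycER by -0.52 ± 0.11 (adjusted p = 0.00274).

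Ccnd2, which pairs with the same kinases, had its highest group means with both compounds as deposited, in YAP2S through 1 of the 2 libraries. In MycER it was 65.7 and 66.4 RPKM, with OHT 80.6 and 85.2 RPKM, with Y27 52.3 and 61.8 RPKM and with both 110.5 and 121 RPKM. The MycER OHT Y27 libraries were above all others of MycER cells. With Y27 present OHT raised it by 1.01 ± 0.17 (limma, adjusted p = 0.000491), in each scaling and without each library. Without Y27 the change was 0.32 ± 0.17 (adjusted p = 0.145) as deposited, and 0.84 under quantile normalization and under cyclic loess (adjusted p = 0.0051 and 0.0116). The difference between these responses, 0.69 ± 0.24 as deposited (adjusted p = 0.0324), was therefore -0.21 and -0.04 in those scalings, and it was lost on corrected reads (adjusted p = 0.0793) and without any 1 of 5 of its 8 libraries (MycER replicate 1, MycER OHT replicates 1 and 2, MycER OHT Y27 replicate 2 and MycER Y27 replicate 1, adjusted p between 0.0574 and 0.106). So was the effect of Y27 with OHT, 0.48 ± 0.17 as deposited (adjusted p = 0.0389) and -0.33 and -0.04 there, and lost without any 1 of its 4 libraries (adjusted p between 0.0698 and 0.175). In YAP2S, YAP2S Y27 and YAP2S OHT all 6 values lay between 61.7 and 69.9 RPKM. The 2 libraries of YAP2S OHT Y27 were apart, at 117 and 74.4 RPKM. Replicate 2 lay near the other YAP2S groups and below both MycER OHT libraries. Depth was 15.71 and 13.49 M reads in MycER OHT against 3.63 and 2.62 M in MycER OHT Y27. Bex1 went against the labels of the libraries with OHT. Whether depth or a difference between populations enters these changes, or those of Ccnd3 below, was not tested.

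Ccnd3, the D-type cyclin with the flattest profile, was not called in any of the 14 comparisons as deposited. It was lowest in MycER Y27, at 8.18 and 8.77 RPKM against 10.2 and 12.1 RPKM in MycER, without overlap. The change of -0.35 ± 0.14 (limma, adjusted p = 0.102) passed under quantile normalization, cyclic loess and corrected reads, at -0.56, -0.59 and -0.58. Its change with OHT in MycER was 0.03 ± 0.14 as deposited and -0.38 and -0.37 under the first of these and the second (adjusted p = 0.0328 and 0.0341), so no direction is given for it. With Y27 present its change with OHT was 0.15 ± 0.14 (adjusted p = 0.383) and passed under quantile normalization, cyclic loess and corrected reads, at 0.47, 0.49 and 0.43.

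Ccne1, cyclin E1, was higher with OHT in the libraries labelled MycER, with and without Y27, and without Y27 no other member rose further. Bex1 went against the labels of the libraries with OHT. Whether a difference between populations enters the changes with OHT, here and for the members below, was not tested. Ccne1 was 7.54 and 12.6 RPKM in MycER and 25.4 and 27.5 RPKM in MycER OHT, without overlap, a change of 1.34 ± 0.22 (limma, adjusted p = 0.000906). In Y27 it rose from 5.69 and 8.82 RPKM to 15.5 and 16.97 RPKM, by 1.09 ± 0.22 (adjusted p = 0.00152). Both rises passed in each of the 4 other scalings, at 0.96 to 1.27 and 1.15 to 1.41, and without each library in turn. With the 4 libraries of the comparison alone the first did not (adjusted p = 0.0534). The 2 rises differed by -0.26 ± 0.31, which did not pass (adjusted p = 0.507). Depth was 1.76 and 7.07 M reads in MycER against 15.71 and 13.49 M in MycER OHT. MycER replicate 1 held 26 reads of Ccne1. With Y27 the depth was 6.29 and 10.2 M reads in MycER Y27 against 3.63 and 2.62 M in MycER OHT Y27. Over the 16 libraries the log2(RPKM + 1) of Ccne1 correlated with log2 depth at 0.556 (Pearson). The part that depth plays in these rises was not tested.

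In YAP2S cells Ccne1 was high before OHT was added. It was 20.0 and 16.5 RPKM in YAP2S and 19.1 and 20.7 RPKM in YAP2S Y27, all 4 above every library of MycER and MycER Y27. The difference between populations was 0.83 ± 0.22 without treatment (limma, adjusted p = 0.0158) and 1.36 ± 0.22 in Y27 (adjusted p = 0.00156). With the libraries without OHT alone the first gave 0.0579 and the second 0.0226. The first also fell to 0.49 without MycER replicate 1 (adjusted p = 0.166), the shallowest library, and passed in 1 of the 4 other scalings. It was lost as well without YAP2S replicate 1 or 2, with adjusted p of 0.113 and 0.057. With OHT the libraries labelled YAP2S reached 28.3 and 26.0 RPKM, a change of 0.56 ± 0.22 with adjusted p = 0.116 as deposited and between 0.0053 and 0.0235 in each of the 4 other scalings. With OHT and Y27 together Ccne1 was 14.0 and 17.2 RPKM in YAP2S, below both YAP2S OHT libraries by -0.77 ± 0.22 (adjusted p = 0.0413). It was also lower in MycER OHT Y27 than in MycER OHT, by -0.67 ± 0.22 (adjusted p = 0.0251). The first was lost without YAP2S OHT replicate 1, YAP2S OHT replicate 2 or YAP2S OHT Y27 replicate 1 (adjusted p = 0.199, 0.159 and 0.239). The second was lost without any 1 of its 4 libraries (adjusted p between 0.0726 and 0.111) and passed in 1 of the 4 other scalings.

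Ccne2, cyclin E2, was called higher with OHT in the libraries labelled MycER only where Y27 was present. In MycER OHT it was 10.2 and 11.2 RPKM against 9.34 and 8.17 RPKM in MycER, a change of 0.27 ± 0.26 (limma, adjusted p = 0.417). In Y27, OHT raised it from 5.04 and 5.61 RPKM to 18.8 and 18.4 RPKM, by 1.63 ± 0.26 (adjusted p = 0.000297). No other member rose further there, in this or in the 4 other scalings. The 2 responses differed by 1.37 ± 0.37 (adjusted p = 0.00872), in each scaling and without each library. Y27 alone changed it in MycER by -0.62 ± 0.26 (adjusted p = 0.115, and 0.0246 with only the libraries without OHT). In YAP2S and YAP2S Y27 its 4 values lay between 7.91 and 8.81 RPKM, and with OHT it was 14.9 and 14.2 RPKM, a change of 0.73 ± 0.26 (adjusted p = 0.0847 as deposited, 0.0153 to 0.0448 in the 4 other scalings). The YAP2S OHT Y27 libraries were 4.64 and 11.3 RPKM and so straddled the untreated level. Their mean was lower than that of YAP2S OHT by -0.90 ± 0.26 (adjusted p = 0.045). Without YAP2S OHT Y27 replicate 1 this was -0.33 (adjusted p = 0.207), and it was also lost without YAP2S OHT replicate 1 or 2 (adjusted p = 0.192 and 0.185). Against MycER OHT Y27 it was lower by -1.23 ± 0.26 (adjusted p = 0.00249), and by -0.67 without replicate 1 of YAP2S OHT Y27, with the call kept.

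Cdc25a, the phosphatase that frees the cyclin E and Cdk2 complex, was higher with OHT in the libraries labelled MycER. It did not pass with OHT in those labelled YAP2S (0.06 ± 0.24, limma adjusted p = 0.894). It was 9.52 and 19.2 RPKM in MycER, far apart and from 79 and 638 reads, and 27.3 and 24.8 RPKM in MycER OHT. Its log2(RPKM + 1) correlated with log2 depth at 0.624 (Pearson). The rise was 0.89 ± 0.24 (limma, adjusted p = 0.0102), and 0.42 without MycER replicate 1 (adjusted p = 0.0917). It was lost as well without MycER OHT replicate 1 (adjusted p = 0.0676), and passed in each of the 4 other scalings. In Y27, OHT raised it from 9.50 and 11.7 RPKM to 21.4 and 16.1 RPKM, by 0.76 ± 0.24 (adjusted p = 0.0183). That call was lost without MycER OHT Y27 replicate 1 or MycER Y27 replicate 1 (adjusted p = 0.133 and 0.111). YAP2S and YAP2S Y27 had 21.8 to 23.4 RPKM, above all 4 MycER libraries without OHT. The difference between populations was 0.70 ± 0.24 without treatment (adjusted p = 0.0408, and 0.0934 with only the libraries without OHT) and 1.03 ± 0.24 in Y27 (adjusted p = 0.0123, and 0.0562). Without MycER replicate 1 the first was 0.23 (adjusted p = 0.432), and it passed in none of the 4 other scalings. The second passed in each of them, and was lost without MycER Y27 replicate 1, YAP2S Y27 replicate 1 or YAP2S Y27 replicate 2 (adjusted p = 0.132, 0.0574 and 0.103).

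Cdk6, a partner of the D-type cyclins, was higher with OHT in the libraries labelled MycER whether or not Y27 was there. It rose from 16.95 and 30.7 RPKM to 39.9 and 37.7 RPKM without Y27, by 0.74 ± 0.21 (limma, adjusted p = 0.0135). Cdk6 had 82 reads in MycER replicate 1, and its log2(RPKM + 1) correlated with log2 depth at 0.349 (Pearson). With Y27 it rose from 16.5 and 21.3 RPKM to 42.9 and 38.7 RPKM, by 1.08 ± 0.21 (adjusted p = 0.00115). Both passed in each of the 4 other scalings. The first was 0.33 without MycER replicate 1 (adjusted p = 0.132) and lost also without MycER OHT replicate 1 (adjusted p = 0.076), whereas the second passed without each library. The difference of the 2 rises, 0.34 ± 0.29, did not pass (adjusted p = 0.348). In the 4 YAP2S groups all 8 libraries lay between 29.1 and 36.0 RPKM, and no change with OHT or Y27 exceeded 0.14 in size. In Y27 the YAP2S libraries were above the MycER libraries by 0.79 ± 0.21 (adjusted p = 0.0239, and 0.0879 with only the libraries without OHT). That call was lost without MycER Y27 replicate 1, YAP2S Y27 replicate 1 or YAP2S Y27 replicate 2 (adjusted p = 0.245, 0.0844 and 0.167).

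**Figure D2:**
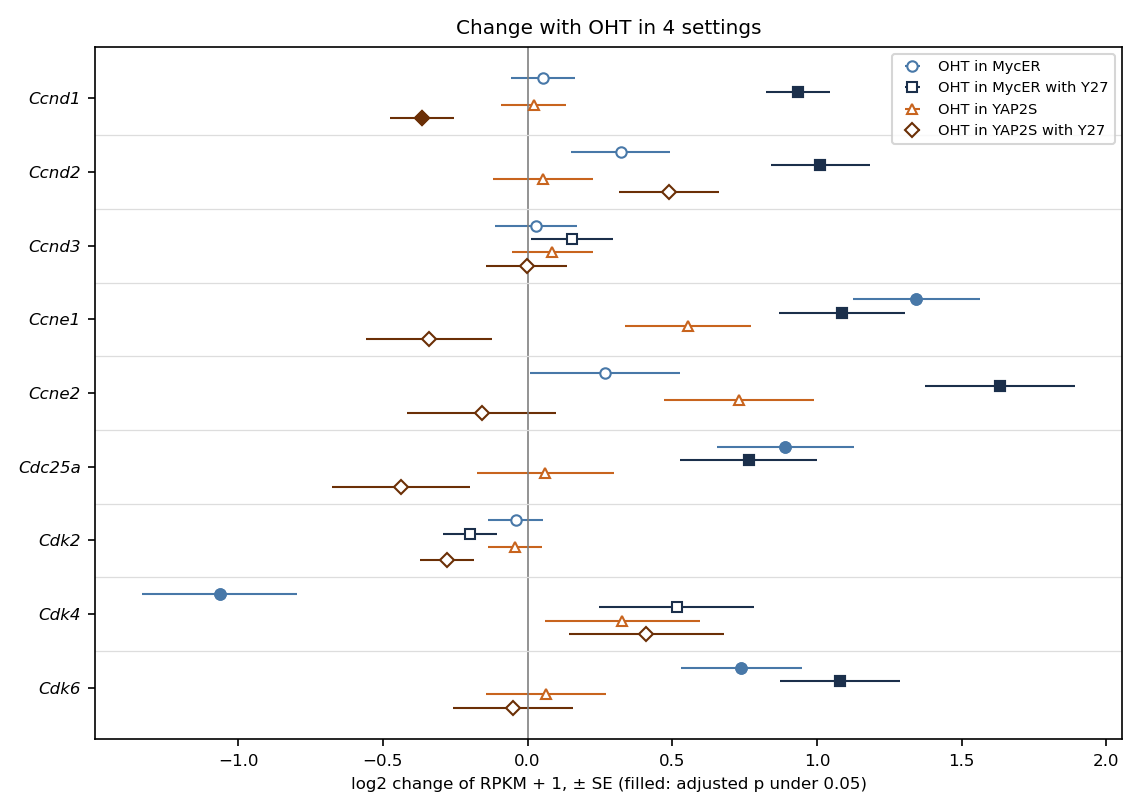
Change with OHT for each member (x axis, log2 of RPKM + 1, point ± SE; y axis, genes) in MycER and YAP2S cells without and with Y27, from limma on 16 libraries as deposited, with filled points at an adjusted p under 0.05. Ccne1, Cdk6 and Cdc25a are filled and to the right in both MycER comparisons, Ccnd1, Ccnd2 and Ccne2 only in MycER with Y27, and in YAP2S only the fall of Ccnd1 with Y27 is filled; Cdk4 changes sign with the scaling.

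Cdk2, the kinase of cyclin E, had a narrow range of 27.8 to 39.6 RPKM. On average it was lowest where both compounds were present, at 27.8 and 30.1 RPKM in MycER and 29.8 and 33.4 RPKM in YAP2S. Its change with Y27 in MycER OHT cells, -0.26 ± 0.09 (limma, adjusted p = 0.0401), passed in none of the 4 other scalings and was lost without any 1 of its 4 libraries (adjusted p between 0.0626 and 0.178). The change with OHT in YAP2S with Y27, -0.28 ± 0.09, did not pass as deposited (adjusted p = 0.0673) and did in each of the 4 other scalings, at -0.30 to -0.26. No other comparison of Cdk2 passed as deposited.

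Cdk4, the main kinase of the D-type cyclins and a known Myc target, had values tied to depth. It was 304 and 149 RPKM in MycER, whose libraries held 1.76 and 7.07 M reads, and 97.1 and 105 RPKM in MycER OHT, with 15.71 and 13.49 M reads. In MycER OHT Y27, at 3.63 and 2.62 M reads, it was 192 and 246 RPKM. YAP2S and YAP2S Y27, with 13.05 to 14.99 M reads, had 96.3 to 107 RPKM. Across the 16 libraries the Pearson correlation of its log2(RPKM + 1) with log2 depth was -0.986, and for the other members it lay between -0.315 and 0.624. These points share their libraries, and the values are a description only. The reads of Cdk4 went from 721 to 2053, or 2.85-fold, while depth went 8.91-fold, and in the deepest library they came to 1.525 per base of its 1347 bases.

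As deposited, Cdk4 fell with OHT in MycER by -1.06 ± 0.27 (limma, adjusted p = 0.00787), but rose by 0.19 under quantile normalization (adjusted p = 0.00193) and stood at -0.01 under cyclic loess (adjusted p = 0.913). It was -0.55 without MycER replicate 1 (adjusted p = 0.0581), and lost as well without MycER OHT replicate 1 (adjusted p = 0.0544). The same 2 scalings turned its change with Y27 in MycER OHT from 1.095 to -0.22 and -0.01, that between untreated YAP2S and MycER from -1.04 to 0.11 and -0.06, and that between the responses of MycER to OHT from 1.58 to -0.39 and -0.01. No direction can be given for Cdk4 from these libraries. Correcting the reads for positions counted once left -0.80 in the first of these (adjusted p = 0.0183). The part that depth plays in the difference between groups was not tested beyond these values. Ccnd2, at up to 1.27 reads per base, is the only other member above 1.

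**Figure D3:**
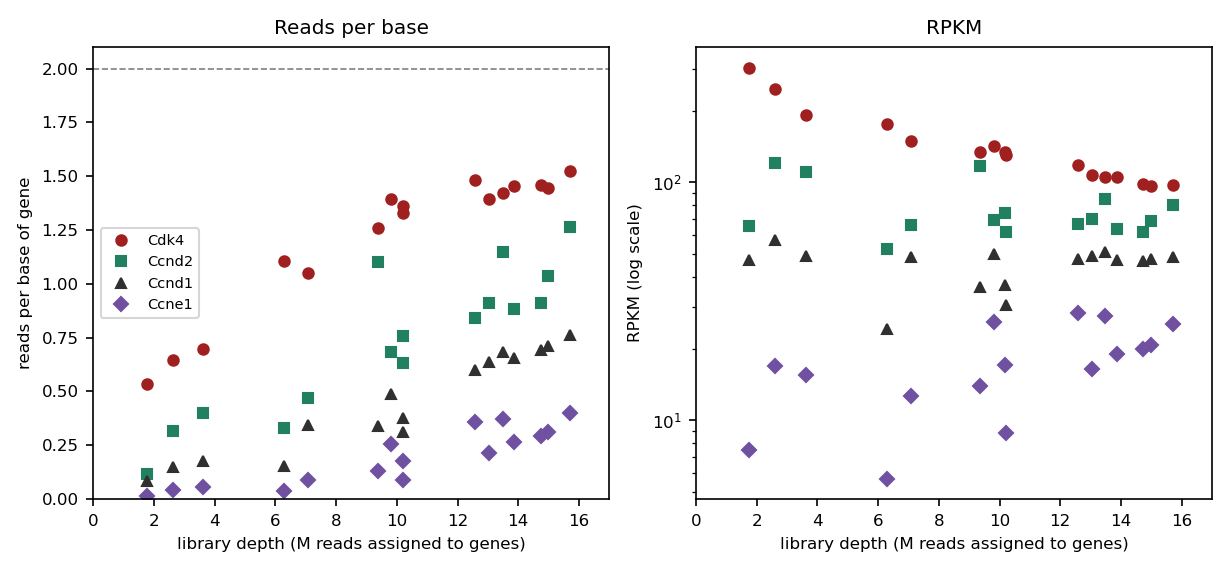
Reads per base of gene (left, linear axis) and RPKM (right, log axis) of Cdk4, Ccnd2, Ccnd1 and Ccne1 against library depth in M reads, 1 point per library, with a dashed line at 2 reads per base, where each position would hold 1 read on each strand. Cdk4 flattens on the left toward 1.525 reads per base and falls on the right from 304 to 96.3 RPKM, while Ccnd1 and Ccne1 show no such fall.

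By comparison, and as the libraries are labelled, OHT called 4 members in MycER and 6 in MycER with Y27, and 0 and 1 in the same settings of YAP2S. In MycER without Y27, 3 of 9 members were higher and 1 lower (limma, adjusted p under 0.05), where 44.9% of all tested genes were called, 31.6% higher and 13.3% lower. The higher ones were Ccne1, Cdk6 and Cdc25a and the lower one Cdk4, whose direction rests on the scaling. The median change was 0.27 over the members and 0.22 over all genes, the latter -0.02 after quantile normalization. With Y27, 6 of 9 were higher and none lower, against 50.1% of genes called and 16.6% called higher. The median was 0.94 over the members and -0.17 over all genes. Those not called were Ccnd3, Cdk2 and Cdk4. Between the 2 responses 4 members were called, all larger with Y27, against 51.4% of genes and 12.3% in that direction. Of them Ccnd1 and Ccne2 kept their direction in each scaling.

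In the libraries labelled YAP2S no member passed with OHT, against 13.8% of genes. Unadjusted p was under 0.05 for 2 of them, Ccne1 and Ccne2, and both passed with quantile normalization, cyclic loess, voom on either kind of reads, and the libraries of the comparison alone. With OHT in Y27, Ccnd1 alone passed, as lower, against 15% of genes and 10% called lower, and the median change was -0.16 over members and -0.04 over all genes. Without YAP2S OHT Y27 replicate 2, Ccnd1 did not pass and Ccnd2, Ccne2 and Cdk2 did, at 0.81, -0.72 and -0.36. Whether OHT acts otherwise in YAP2S than in MycER was not tested by an interaction here.

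Y27 moved 1 member in MycER cells, Ccnd1, against 17.9% of genes called and 4.47% called lower. As deposited all 9 members had a change below 0 there, with a median of -0.35 against 0.13 over all genes. How many of all genes lay below 0 was not counted. The median over all genes was -0.007 under quantile normalization and -0.008 under cyclic loess. The other 8, from -0.10 for Cdk2 to -0.62 for Ccne2, did not pass as deposited. After quantile normalization Ccnd3, Ccne1 and Cdc25a passed with Ccnd1, at -0.56, -0.63 and -0.55, and Cdk4 passed with the opposite sign, at 0.17. Without MycER replicate 1, Ccne1, Cdk6 and Cdc25a passed with Ccnd1, at -0.75, -0.68 and -0.81. In YAP2S cells Y27 moved no member, against 0.668% of genes called, and none had an unadjusted p under 0.05 or passed in any of the 4 other scalings. The changes lay between -0.11 and 0.12, and the widest 95% interval, that of Cdk4, went from -0.62 to 0.55, so that changes of that size were not detectable. In the test of the difference between the 2 populations no member passed, against 0.568% of genes. Ccnd1 had an unadjusted p under 0.05 and was the 1 member that passed in each of the 4 other scalings. With OHT present, Y27 moved 5 members in MycER, against 46.9% of genes (10.5% higher and 36.4% lower), namely Ccnd2, Ccne2 and Cdk4 up and Ccne1 and Cdk2 down. Only the rise of Ccne2 passed in each other scaling, at 0.80 to 1.25. It was lost without any 1 of its 4 libraries, with adjusted p between 0.0834 and 0.146. In YAP2S with OHT it lowered Ccnd1, Ccne1 and Ccne2, against 11.4% of genes and 6.4% called lower.

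**Figure D4:**
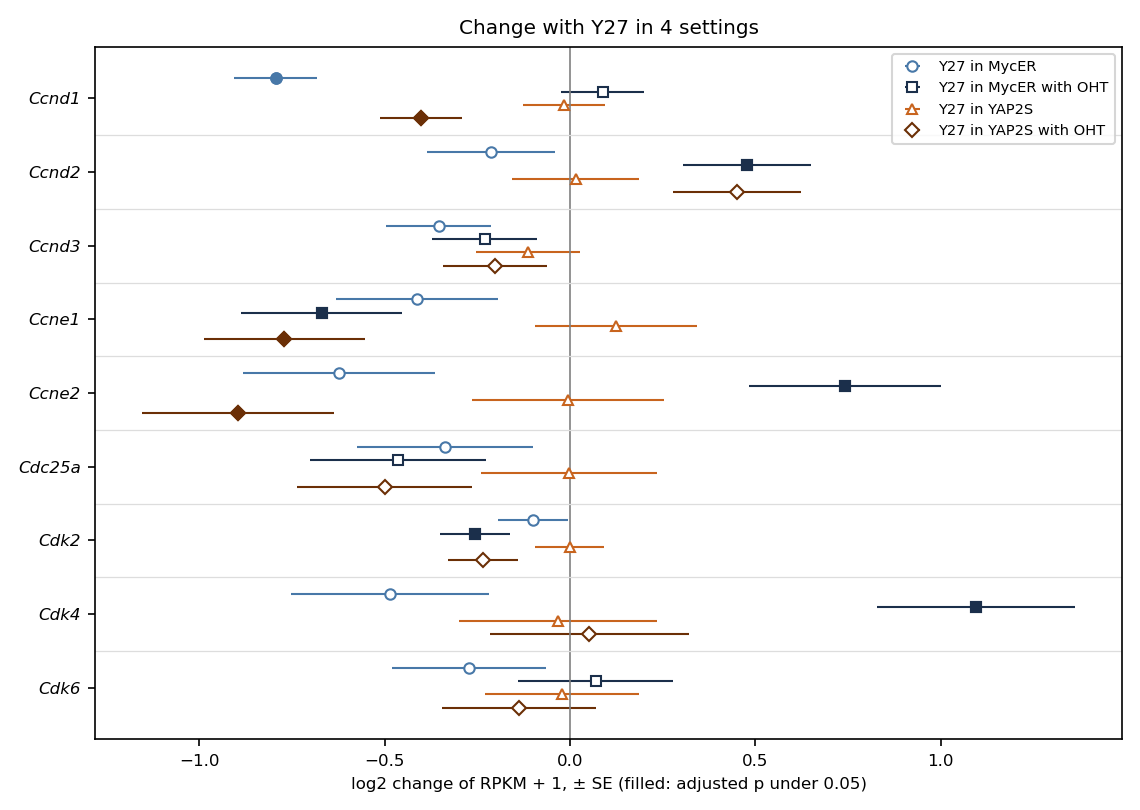
Change with Y27 for each member (x axis, log2 of RPKM + 1, point ± SE; y axis, genes) in MycER and YAP2S cells without and with OHT, with filled points at a limma adjusted p under 0.05 as deposited. The points of YAP2S without OHT all lie between -0.11 and 0.12, and the fall of Ccnd1 in MycER, at -0.79, is the only filled point among libraries without OHT.

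Between the populations, untreated YAP2S libraries had Ccne1 and Cdc25a higher and Cdk4 lower than MycER, 3 members against 33.3% of genes (24.8% higher and 8.43% lower). With only the libraries without OHT none of the 3 passed (adjusted p = 0.0579, 0.0934 and 0.0575). In Y27 4 members were higher in YAP2S, Ccnd1, Ccne1, Cdk6 and Cdc25a, against 16% of genes and 10.6% called higher. With only the libraries without OHT these were Ccnd1, Ccne1 and Ccne2, the last at 0.56 (adjusted p = 0.0386). With OHT no member passed, against 11.1% of genes, nor had any an unadjusted p under 0.05; quantile normalization called 1 and the libraries of the comparison alone 2. With both compounds Ccnd1 and Ccne2 were lower in YAP2S, against 47% of genes and 14.2% called lower. The comparisons are not independent, since each group enters several of them.

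**Figure D5:**
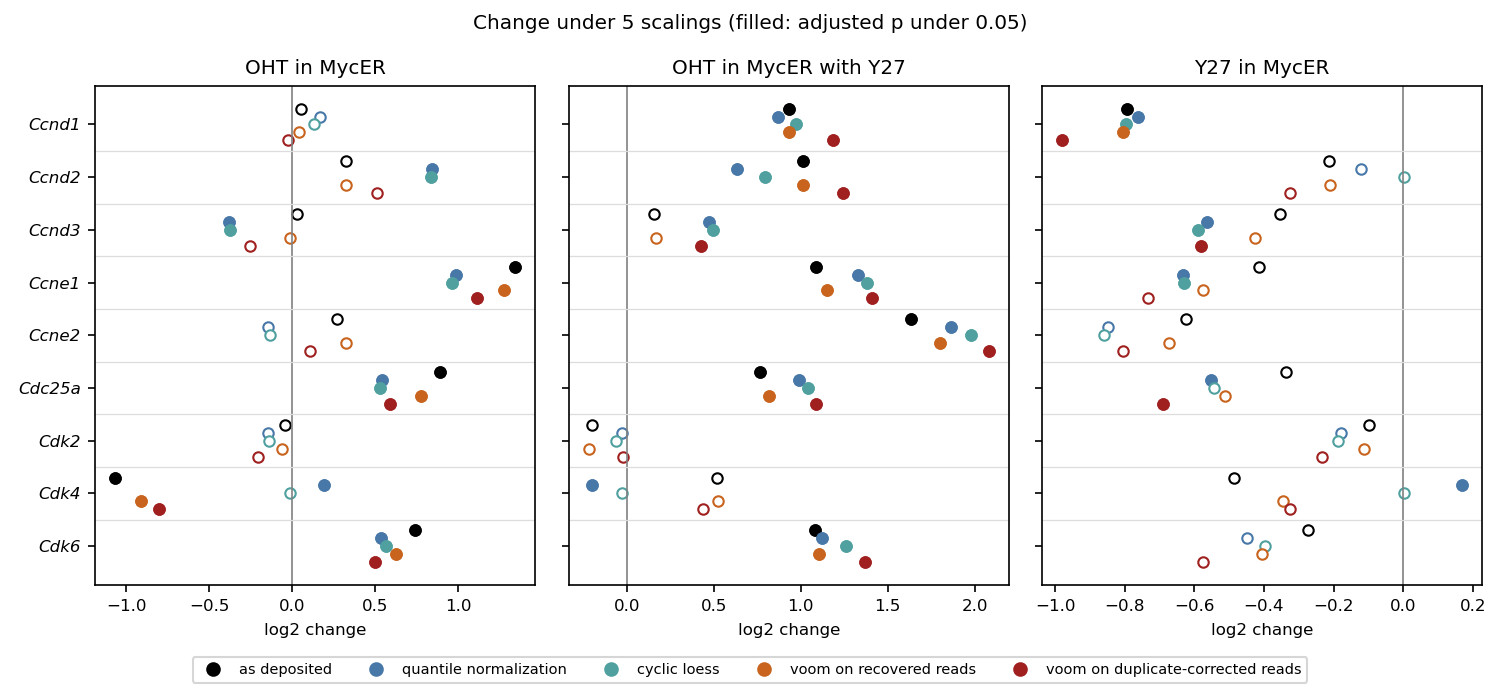
Change of each member (y axis) with OHT in MycER, with OHT in MycER with Y27 and with Y27 in MycER (x axis, log2 scale) under 5 scalings, filled where the adjusted p is under 0.05. Ccne1, Cdk6 and Cdc25a are filled in all 5 scalings in the first panel, Ccnd1 in all 5 in the second and the third, and Cdk4 lies on both sides of 0 in each panel.

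Other genes of G1 were counted in lists chosen with earlier results known. Of 6 tested CDK inhibitors (Cdkn2d was too low), Y27 in MycER raised 3, where 13.4% of all genes were called higher. They were Cdkn1b (p27), from 22.7 to 34.0 RPKM, Cdkn1c (p57), from 1.82 to 3.71, and Cdkn1a (p21), from 1.15 to 4.66, by 0.57, 0.74 and 1.24. Cdkn1a stood at 2.15 and 7.17 RPKM in the 2 libraries of MycER Y27, and its change was 0.555 without replicate 2 of that group (adjusted p = 0.363), 1.93 without replicate 1, and 1.16 without MycER replicate 1 (adjusted p = 0.175). Cdkn1c was lost without MycER replicate 1 or MycER Y27 replicate 2 (adjusted p = 0.0576 and 0.0801). Only Cdkn1b passed in each of the 4 other scalings and without each library. Over the 6 tested the median change was 0.42, against 0.13 over all genes, the latter -0.007 after quantile normalization. OHT in MycER with Y27 lowered all 6 tested, where 33.5% of genes were called lower, with Cdkn1b at 13.9 RPKM, Cdkn1c at 1.06, Cdkn2c at 23.3 and Cdkn1a at 0.0861, by -1.23, -1.19, -0.81 and -2.23 (limma, adjusted p = 6.23e-06, 9.31e-05, 0.000346 and 0.000506). The same count, 6 lower, was reached in each other scaling, and 5 to 6 without each library in turn. Cdkn1a lay at the floor in MycER OHT Y27, at 0 and 0.172 RPKM, where 1 read per kilobase is worth 0.276 and 0.382 RPKM. The size of its fall is therefore uncertain. OHT in MycER without Y27 raised 2 and lowered 2, against 31.6% and 13.3% of genes. In the libraries labelled YAP2S, OHT raised 0 and lowered 1, against 13.8% of genes called. With Y27 it raised 1 and lowered 1, against 15%. Cdkn1b went from 22.7 to 32.1 RPKM with OHT in MycER. It went from 36.2 to 19.9 in YAP2S, and from 38.4 to 26.7 in YAP2S with Y27. Bex1 went against the labels of the libraries with OHT, and whether a difference between populations enters these changes was not tested.

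Of 11 genes of S phase and mitosis that E2F is known to drive, Y27 in MycER lowered 3, against 4.47% of genes. They were Rrm2 (a ribonucleotide reductase subunit) by -1.03, Cdk1 by -0.57 and Tk1 (thymidine kinase) by -0.54. Without each library in turn the count was 1 to 4, with Cdk1 lost without MycER replicate 1, MycER Y27 replicate 1 or MycER Y27 replicate 2 and Tk1 without MycER Y27 replicate 1. OHT raised 10 of 11 in MycER with Y27, against 16.6% of genes, among them Rrm2 from 13.3 to 35.6 RPKM, Ccna2 (cyclin A2) from 35.7 to 76.7, Cdk1 from 27.2 to 52.4 and Tk1 from 37.7 to 67.2. The other scalings called 9 to 11 higher and none lower, and 6 to 9 were higher without each library in turn. Without Y27 it raised 5 and lowered 1, Pcna, against 31.6% and 13.3% of genes. Under quantile normalization 3 and under cyclic loess 2 were higher and none lower, with Pcna at 0.03 and 0.02 in place of -0.74, and without each library in turn 0 to 4 were higher. YAP2S was higher than MycER in Y27 for 5 of 11 (10.6% of genes), with Rrm2 at 40.6 RPKM against 13.3, and lower for 8 of 11 with both compounds (14.2% of genes). Without each library in turn these counts were 1 to 5 and 7 to 9. Y27 in YAP2S moved none of the 11, against 0.668% of genes. In the libraries labelled YAP2S, OHT raised 0 and lowered 1 of the 11, against 13.8% of genes called. With Y27 it raised 0 and lowered 2, against 15%. Bex1 went against the labels of the libraries with OHT. Whether a difference between populations enters the comparisons of this list that use them was not tested.

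Of 13 pocket proteins and E2F genes, OHT in MycER raised 7 and lowered none as deposited, against 31.6% and 13.3% of genes, among them E2f1 from 8.93 to 24.6 RPKM, E2f8 from 1.84 to 7.27, E2f3 from 20.2 to 32.8 and Tfdp2 from 11.9 to 20.3. With Y27 it raised 6 and lowered 1, against 16.6% and 33.5%, and Tfdp1, a partner of E2F factors, went from 62.2 to 118 RPKM. The count higher was 5 to 9 without Y27 and 3 to 5 with it when each library was left out in turn. Untreated YAP2S libraries had 7 higher than MycER, against 24.8% of genes, 2 in quantile-normalized values, and 0 to 6 without each library in turn. Y27 called none in either population, and 1 lower in MycER in each other scaling. Of 19 regulators of the kinases and of cyclin turnover, OHT raised 6 and lowered 2 in MycER, shares near those of all genes (31.6% and 13.3%). Cdc25b, a sister of Cdc25a, rose by 1.16, Fbxo31, which is known to target cyclin D1 for breakdown, by 1.01, Wee1 by 1.05 and Skp2, of the ligase that removes p27, by 0.67. With Y27 it raised 6 and lowered 4, against 16.6% and 33.5% of genes, with Skp2 up by 0.55 and Fbxo4 down by -0.999. Y27 in MycER raised 3 and lowered 1, against 13.4% and 4.47%. In the libraries labelled YAP2S, OHT raised 1 and lowered 2 of the 19, against 13.8% of genes called. From YAP2S to YAP2S OHT, Cdc25b went from 20.9 to 12.6 RPKM and Wee1 from 8.97 to 9.71. Fbxo31 went from 22.6 to 43.9 RPKM and Skp2 from 17.1 to 20.2. Bex1 went against the labels of the libraries with OHT. Whether a difference between populations enters the changes with OHT of these 2 lists was not tested.

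Over the 16 libraries the genes with the most similar profile, by Pearson correlation of log2(RPKM + 1) among 8161 tested genes with a mean of at least 10 RPKM, were as follows. Ccnd1 was closest to Npr3 (0.96), Bcar1 (0.96), an adaptor of focal adhesions, and Aif1l (0.95), and each of these stayed at 0.95 or more after quantile normalization. Ccne1 was closest to Lmnb2 (0.97), Qtrtd1 (0.96) and Mb21d1 (0.96). Cdk6 was closest to Mdn1 (0.98), Uhrf1 (0.96) and Arid2 (0.96), and Cdc25a to Lmtk2 (0.95), Trmt6 (0.95) and Sfxn2 (0.94). After quantile normalization, in the same order, the values were 0.96, 0.94 and 0.89 for Ccne1. They were 0.94, 0.925 and 0.695 for Cdk6 and 0.92, 0.95 and 0.76 for Cdc25a. The points share libraries and depth, so these are descriptions without a test.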

How the data were processed

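RNA was purified on MinElute columns and sequenced from TruSeq libraries made without poly-T selection. The submitters' processing notes name TopHat2 2.0.8, SAMtools, featureCounts 1.4.5-p1 and the build mm9, while the annotation, the strand setting and the treatment of duplicate reads are not given in the sources used here. The authors deposited 1 table of 21671 genes and 16 libraries, whose values were taken to be RPKM from the values themselves, since no label names the unit. Each value is a whole multiple of what 1 read is worth, and whole reads were recovered for 21671 of 21671 genes (100.0%) within 0.01 read, which gave the depths of 1.76 to 15.71 M reads. No column belonged to another series (0 found).

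log2(RPKM + 1) of the 13028 genes with at least 1 RPKM in at least 2 libraries was fitted with limma 3.58.1 (R 4.3.3) over all 16 libraries, with 1 coefficient per group, a trended variance and 8 residual degrees of freedom. Adjusted p-values are Benjamini-Hochberg values over those genes within each of 14 comparisons, 2 of them interactions, with a threshold of 0.05. Fold changes on this scale understate those of low genes. The 4 other scalings were quantile normalization, cyclic loess, voom on the recovered reads (chosen after seeing the data) and voom on reads corrected for positions counted once, scaled by median ratios. The correction assumes that each position on each of 2 strands is counted at most once. Other alternatives were a pseudocount of 0.1, no filter, a replicate block, the libraries of the comparison alone, the libraries without OHT alone, and each library left out in turn. The fit was tested on simulated counts proportional to depth, with no limit on reads per base. That test does not cover the dependence on depth seen for Cdk4.

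The members are always named. Other G1 genes are given as counts, with up to 4 named per list and comparison by the smallest adjusted p, and likeness of profile is given for Ccnd1, Ccne1, Cdk6 and Cdc25a. The members and lists were chosen with earlier results of these data known. Tables were handled with Python 3.11.15, numpy 2.4.6 and pandas 2.3.3.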

Additional observations from a re-analysis of the deposited data

Results flagged for a closer look

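In the libraries labelled MycER the response to OHT differed with and without Y27 for 4 members by a limma interaction term, with differences of 0.88 for Ccnd1, 1.37 for Ccne2, 0.69 for Ccnd2 and 1.58 for Cdk4 on the log2 scale (adjusted p = 0.000895, 0.00872, 0.0324 and 0.00476). Those of Ccnd2 and Cdk4 turned under quantile normalization and cyclic loess.

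In other cases the libraries of the compared groups did not overlap in either of 2 settings, while the changes had opposite signs. These differences between settings were not tested, and how many of all genes meet this rule was not counted. Cdk4 changed with OHT by -1.06 in MycER and 0.33 in YAP2S as deposited. The change in MycER was 0.19 under quantile normalization and -0.01 under cyclic loess, so no direction is given for Cdk4. In Y27, OHT changed Ccnd1 by 0.94 in MycER and -0.37 in YAP2S, Ccne1 by 1.09 and -0.34, and Cdc25a by 0.76 and -0.44. With OHT present, Y27 changed Ccne2 by 0.74 in MycER and -0.90 in YAP2S. In YAP2S, OHT changed Ccne1 by 0.56 without Y27 and by -0.34 with it. Neither passed as deposited (limma, adjusted p = 0.116 and 0.33). With OHT in YAP2S, Cdk4 without Y27 and Cdc25a with it did not pass either (limma, adjusted p = 0.46 and 0.245). All these pairs rest on libraries with OHT, in which Bex1 went against the labels.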

How the results depend on the processing

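Counts of members past the threshold are given here beside those as deposited, where they differ by over 1.5 times. For OHT in YAP2S (0) quantile normalization, cyclic loess, voom, voom on corrected reads and the comparison's own libraries each gave 2. For OHT in YAP2S with Y27 (1) a pseudocount of 0.1, no filter and own libraries gave 0, quantile, loess and corrected reads 2 and voom 3. For Y27 in MycER (1) quantile gave 5, loess 4, corrected reads 3, libraries without OHT 2 and own libraries 0. For Y27 in MycER with OHT (5) no filter gave 3, quantile and corrected reads 2 and loess 1. For Y27 in YAP2S with OHT (3) the pseudocount and no filter gave 1 and own libraries 0. For untreated YAP2S against MycER (3) quantile, loess and corrected reads gave 1, and libraries without OHT and own libraries 0. For YAP2S with both compounds (2) quantile and loess gave 4 and own libraries 1, for YAP2S with OHT (0) quantile gave 1 and own libraries 2, and for OHT in MycER (4) own libraries gave 0. For the difference of the Y27 responses between populations (0), quantile, loess, voom, corrected reads and the replicate block each gave 1.

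Leaving out 1 library in turn gave 1 to 4 members for OHT in MycER, 5 to 6 with Y27, 0 to 0 for OHT in YAP2S and 0 to 3 with Y27. It gave 1 to 4 for Y27 in MycER, 0 to 1 with OHT, 0 to 0 for Y27 in YAP2S and 0 to 5 with OHT. Between populations it gave 0 to 4 untreated, 2 to 4 in Y27, 0 to 0 with OHT and 2 to 3 with both, and for the 2 interactions 3 to 5 and 0 to 2. The genes called moved with them, from 432 to 4243 for Y27 in YAP2S with OHT, 1077 to 5064 for Y27 in MycER and 487 to 6667 for untreated YAP2S. The lone library left in a group is then assumed to vary like the other groups.

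Signs turned under quantile normalization for Cdk4 with OHT in MycER (0.19), with OHT in MycER with Y27 (-0.20), with Y27 in MycER (0.17), with Y27 in MycER with OHT (-0.22), for untreated YAP2S (0.11), for YAP2S with both compounds (0.25) and for the OHT and Y27 interaction (-0.39). They turned for Ccnd2 with Y27 in MycER with OHT (-0.33) and in that interaction (-0.21), and for Ccnd3 with OHT in MycER (-0.38) and in untreated YAP2S (-0.43). Under cyclic loess they turned for Ccnd2 in the same 2 comparisons (-0.039 and -0.042), for Cdk4 in those 2 (-0.010 and -0.013) and for Ccnd3 as above (-0.37 and -0.41). The cause was not tested.

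Replicate numbers did not pair the libraries: over 28 pairs of groups the deviations of same-numbered libraries correlated at -0.327 to 0.432 (median -0.015), with 8 over 0.1. With the replicate block the member counts were 1 for the difference of the Y27 responses (Ccnd1, adjusted p = 0.0451), 4 for Y27 in MycER with OHT, 2 for Y27 in YAP2S with OHT and 2 for untreated YAP2S, and the same elsewhere. The edgeR test planned on recovered reads was not run, and voom stood in its place. No value without the OHT libraries can be had for comparisons with OHT.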
